A study of Mus musculus with 6 samples.

Results

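The proteasome genes were taken by name: every gene whose symbol starts with Psma, Psmb, Psmc, Psmd, Psme, Psmf or Psmg followed by a digit, with names marked as pseudogenes left out. The rule found 51 of the 53647 genes measured and dropped 5 pseudogene names. Of the 51, 49 encode subunits, activators, an inhibitor or assembly factors of the proteasome. Psmc3ip and Psme3ip1 were matched by name and are none of these. They were described in macrophages that had been sorted by the surface receptor Cxcr4 out of orthotopic pancreatic ductal adenocarcinomas of C57BL/6 mice. There were 3 libraries of Cxcr4+ and 3 of Cxcr4- macrophages, all of total RNA and all from tumour-bearing animals. The labels give neither the tumour cells implanted nor the age of the mice, and separate animals for the replicates are not named either, so a p-value here measures the spread between libraries. The comparison asks how transcript levels of these genes in Cxcr4+ macrophages stood against those in Cxcr4- macrophages.

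The proteasome is the barrel-shaped protease that degrades ubiquitin-tagged proteins in the cytosol and nucleus. Its core particle is a stack of alpha and beta rings, and the catalytic sites sit on beta subunits inside the barrel. A regulatory particle of ATPase and non-ATPase subunits caps the barrel, recognises ubiquitin and feeds unfolded substrate into it. In immune cells, and under interferon-gamma, the catalytic subunits Psmb5, Psmb6 and Psmb7 can be replaced during assembly by Psmb8, Psmb9 and Psmb10, which gives the immunoproteasome. The immunoproteasome favours peptides that fit MHC class I molecules, and macrophages are known to make its subunits.

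The libraries held 46444934 to 55740671 estimated counts, and the proteasome genes took 0.449 to 0.501% of them. Summed macrophage markers stood at 7281 to 9148 FPKM in Cxcr4+ and 6493 to 7779 FPKM in Cxcr4- libraries, where FPKM is fragments scaled to gene length and library size. The 7 T and NK cell markers summed to at most 0.0632 FPKM in Cxcr4+ and 0.0893 FPKM in Cxcr4- libraries, with Nkg7, Gzmb and Klrb1c at 0 in all of them, and the 4 B cell markers summed to 0.156 to 0.614 FPKM in Cxcr4+ and 0.248 to 0.331 FPKM in Cxcr4- libraries. Epithelial markers, 7 in all, summed to 1.17 to 2.52 FPKM in Cxcr4+ and 2.28 to 4.58 FPKM in Cxcr4- libraries, and 8 neutrophil markers to 6.64 to 9.34 FPKM in Cxcr4+ and 7.06 to 10.2 FPKM in Cxcr4- libraries. Of the 9 macrophage markers, C1qa, C1qb and C1qc averaged under 1 FPKM. The 10 fibroblast markers reached 17.2 FPKM in Cxcr4+ replicate 1 and lay between 2.31 and 4.19 FPKM in the other libraries, with Lum at 0. Cxcr4, the sorted gene, had 9.18, 9.04 and 9.59 FPKM in Cxcr4+ libraries, against 8.56, 5.97 and 7.73 FPKM in Cxcr4- libraries. These ranges did not overlap, but the log2 fold change of 0.27 ± 0.19 (SE) did not pass edgeR's quasi-likelihood test (adjusted p = 0.999). The libraries numbered 2 in the 2 groups resembled each other, which is taken up after the gene groups.

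Proteasome transcripts were present at clear levels in all 6 libraries. Of the 51 genes, 50 passed the filter on low counts, with 466 to 24726 counts per library. The exception was Psmb11, the catalytic subunit of the thymic cortex, with 0 counts in every library, which allows up to 0.0507 to 0.0608 FPKM at a floor of 12 counts per library. Mean levels over the 6 libraries ran between 2.64 FPKM for Psmf1 and 131 FPKM for Psma6. The spread over the 6 libraries had a median coefficient of variation of 10.1% over the 50 genes. It was 18.1% over all genes tested and 11.1% over those averaging 5 FPKM or more. Levels of different genes depend on the length the authors' gene models assign. The length implied by count and FPKM was 1.13 to 3.80 times that of the coding transcript in GENCODE M21, so an order between genes is given on the FPKM scale and is less certain than a comparison within a gene.

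**Figure D1:**
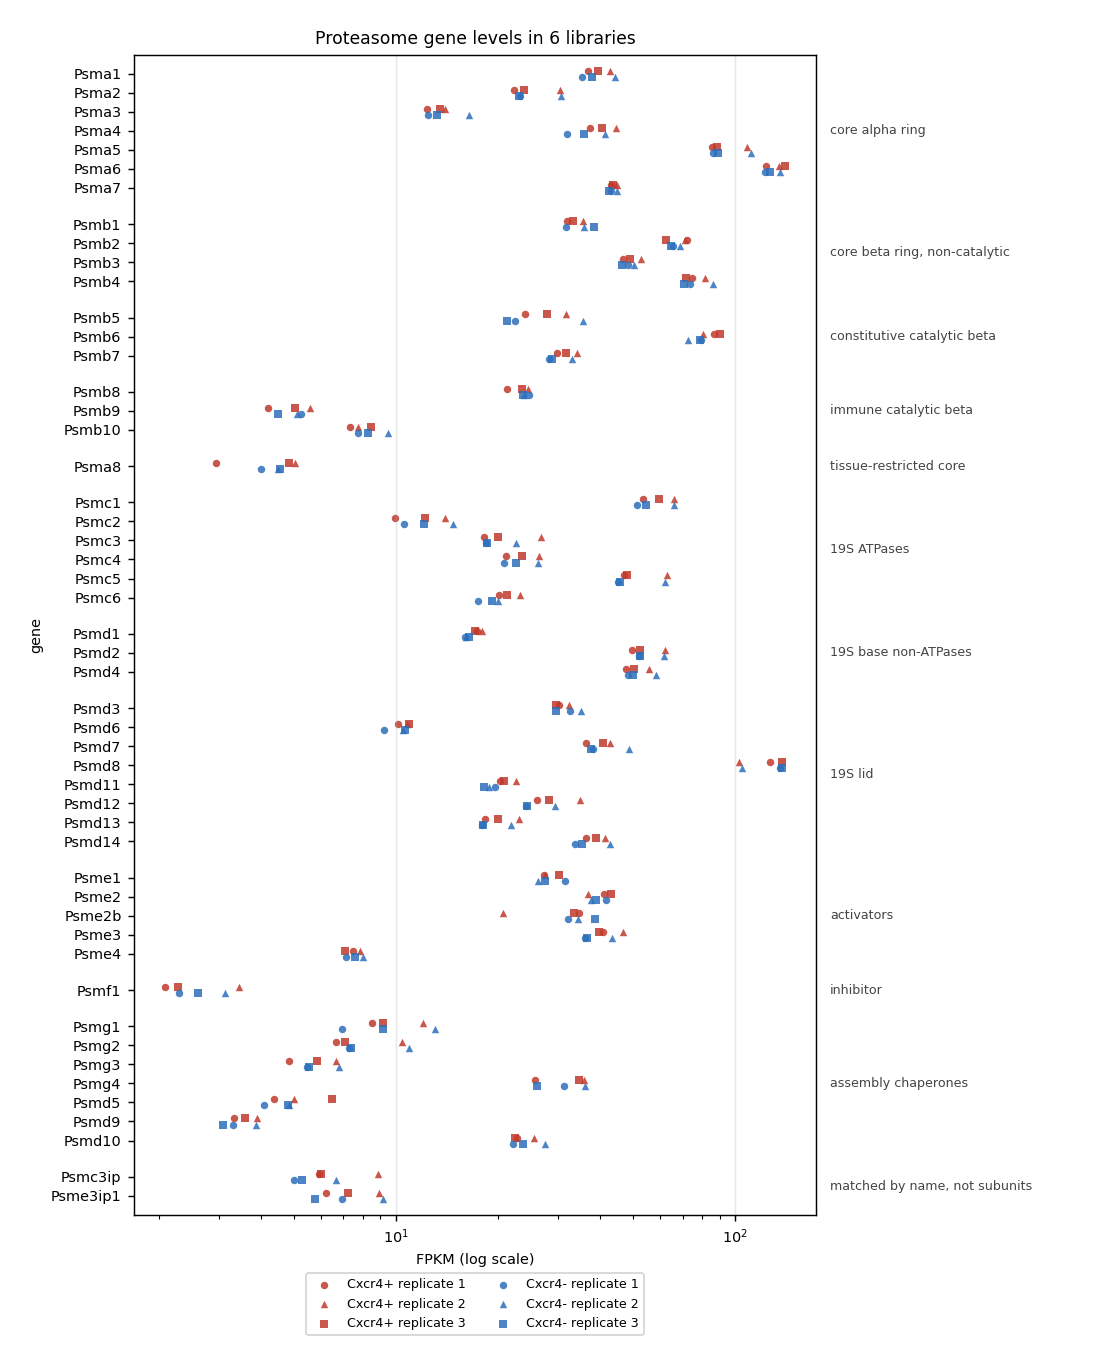
Level of each of the 50 tested proteasome genes in every library (FPKM, log axis), grouped by role, with Cxcr4+ libraries in red and Cxcr4- libraries in blue and a marker shape for each replicate number. Red and blue points interleave in nearly all rows, and the triangles, replicate 2 of both groups, lie furthest right in 32 of the 50.

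No proteasome gene passed the test for a difference between Cxcr4+ and Cxcr4- macrophages. None of the 50 tested genes passed edgeR's quasi-likelihood test at an adjusted p of 0.05, where 5 of all 16031 genes (0.0312%) did, and none had an unadjusted p under 0.05, where 4.85% of all genes did. DESeq2 also called 0 of the 50, against 0.436% of the genes it tested, and gave an unadjusted p under 0.05 to Psmc6 alone (0.0467), against 5.61% of genes. Limma-trend on log2(FPKM + 1) called 0 and had 0 at an unadjusted p under 0.05, against 0.0357% and 5.21% of genes. In bulk RNA, a difference in transcripts per cell and a difference in the make-up of the sorted cells cannot be told apart.

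The log2 fold changes, Cxcr4+ minus Cxcr4-, lay between -0.24 for Psme2b and 0.29 for Psmc3ip, with a median of 0.03 over the 50 genes and of 0.0004 over all genes tested. They were above 0 in 28 genes and below 0 in 22, or 56% above 0, where 50.1% of all genes were. The split moved with single libraries: leaving out Cxcr4+ replicate 1 gave 38 above 0, leaving out Cxcr4- replicate 2 gave 37 and leaving out Cxcr4+ replicate 2 gave 24. The 95% intervals of the log2 fold changes had half-widths of 0.17 to 0.52, with a median of 0.24. For 43 of the 50 genes the interval lay within 0.5 either side of 0, which is a 1.41-fold difference in either direction.

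**Figure D2:**
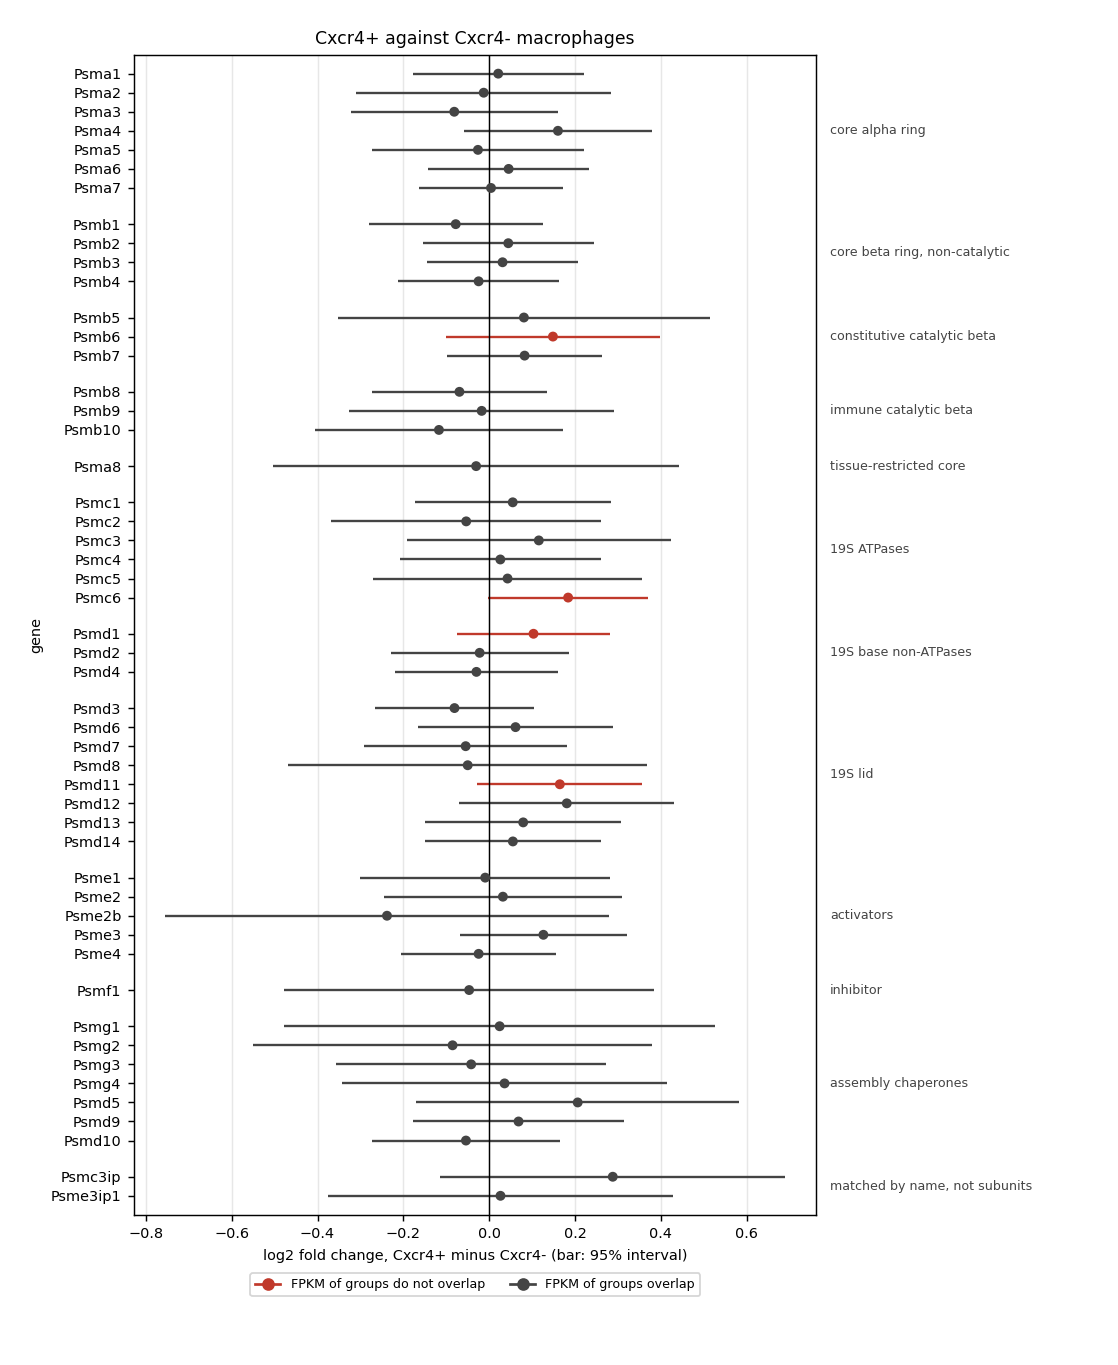
Log2 fold change of each gene (Cxcr4+ minus Cxcr4-, points) with its 95% interval (bars), grouped by role. All 50 intervals include 0, and the 4 genes in red are those whose 3 Cxcr4+ values all lie above the 3 Cxcr4- values.

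In 4 of the 50 genes (8%) the FPKM ranges of the groups did not overlap, where 10.4% of all genes showed this. All 4 were higher in Cxcr4+ libraries, a direction seen in 5.5% of all genes, and none was lower throughout, as 4.87% of all genes were. They were the catalytic subunit Psmb6, the ATPase Psmc6, the scaffold subunit Psmd1 and the lid subunit Psmd11, of which Psmd1 and Psmd11 were chosen for naming after their values were seen.

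The catalytic subunits carry the protease activity, and their constitutive forms were measured at positive fold changes that did not pass the test. Psmb5, the chymotrypsin-like subunit, had 24.1, 31.8 and 27.9 FPKM in Cxcr4+ libraries 1 to 3, against 22.5, 35.6 and 21.2 FPKM in Cxcr4- libraries 1 to 3, the order used for all values that follow. The Cxcr4- values enclosed the Cxcr4+ values, and the log2 fold change was 0.08 with a 95% interval of -0.35 to 0.51. Psmb6, the caspase-like subunit and the most abundant catalytic gene on the FPKM scale, had 86.8, 80.1 and 89.9 FPKM in Cxcr4+ libraries, against 79.1, 72.8 and 78.9 FPKM in Cxcr4- libraries. Here every Cxcr4+ value was above every Cxcr4- value, yet the interval of the log2 fold change, -0.10 to 0.40 around 0.15, included 0. The fold change was 0.08 when Cxcr4- replicate 2 was left out, 0.09 when Cxcr4+ replicate 3 was and 0.23 when Cxcr4+ replicate 2 was. Psmb7, the trypsin-like subunit, had 29.9, 34.3 and 31.8 FPKM in Cxcr4+ libraries, against 28.3, 33.1 and 28.9 FPKM in Cxcr4- libraries. Its groups overlapped, with a log2 fold change of 0.08 and an interval of -0.10 to 0.26.

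The immune forms had negative fold changes, all 3 with overlapping groups. Psmb8, the immune counterpart of Psmb5, had 21.2, 24.5 and 23.6 FPKM in Cxcr4+ libraries, against 24.7, 23.9 and 23.7 FPKM in Cxcr4- libraries. Cxcr4+ replicate 1 was the lowest of the 6, and the log2 fold change was -0.07 ± 0.09 (SE, 3 libraries a group) with an interval of -0.27 to 0.13, -0.03 when that library was left out and -0.02 when Cxcr4- replicate 1 was. Psmb9, the counterpart of Psmb6, had 4.21, 5.57 and 5.05 FPKM in Cxcr4+ libraries, against 5.27, 5.12 and 4.50 FPKM in Cxcr4- libraries. The highest and the lowest value were both Cxcr4+, and the log2 fold change of -0.02, with an interval of -0.33 to 0.29, turned to 0.07 when Cxcr4+ replicate 1 was left out and to 0.06 when Cxcr4- replicate 1 was. Psmb10, the counterpart of Psmb7, had 7.32, 7.73 and 8.47 FPKM in Cxcr4+ libraries, against 7.75, 9.50 and 8.26 FPKM in Cxcr4- libraries. Its log2 fold change was -0.12, with an interval of -0.41 to 0.17. It was -0.07 when Cxcr4+ replicate 2 or Cxcr4- replicate 2 was left out, -0.03 when both were, and -0.20 when Cxcr4+ replicate 3 was. The intervals of the 3 immune genes reached no further than -0.41 for Psmb10 and 0.29 for Psmb9.

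In GRCm39, Psmb8 lies on chromosome 17 at 34416695 to 34420428 on the plus strand and Psmb9 at 34400961 to 34406738 on the minus strand, both in the MHC region on either side of the peptide transporter gene Tap1 at 34406527 to 34416199. The Psmb9 and Tap1 coordinates overlap, and 12.5% of the 50-base words of the Psmb9 transcript also occur in Tap1. Whether reads were counted by strand is not given in the sources used here, so reads of Psmb9 and Tap1 in the shared stretch cannot be told apart. Tap1 itself had a log2 fold change of 0.15 with an interval of -0.12 to 0.43. Psmb10 lies on chromosome 8 at 106662367 to 106664736, Psmb5 on chromosome 14 at 54851576 to 54855479 and Psmb7 on chromosome 2 at 38478048 to 38534099, all on the minus strand, and Psmb6 on chromosome 11 at 70416193 to 70418684 on the plus strand. Psmb5 shares 57.1% of its 50-base words with other annotated transcripts, 49.4% with the processed pseudogene Gm3375, and Psmb7 shares 28.1% with the neighbouring gene Nek6, so their levels are less certain than those of Psmb6 and Psmb10, with 2.67% and 0%.

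The promoters of 2 exchanged pairs, Psmb8 with Psmb5 and Psmb9 with Psmb6, are shown because the members of a pair are drawn upon under different conditions. Each is the 250 bases before the gene's start in RefSeq on GRCm38.p6, read 5′ to 3′ on the gene's strand, with motif matches in capitals.
Psmb8, chr17:34197945-34198194, plus strand: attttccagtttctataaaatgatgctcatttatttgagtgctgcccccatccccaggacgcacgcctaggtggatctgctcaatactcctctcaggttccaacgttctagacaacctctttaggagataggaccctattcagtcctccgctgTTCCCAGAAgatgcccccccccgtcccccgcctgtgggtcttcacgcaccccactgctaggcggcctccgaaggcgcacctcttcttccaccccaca
Psmb5, chr14:54617996-54618245, minus strand: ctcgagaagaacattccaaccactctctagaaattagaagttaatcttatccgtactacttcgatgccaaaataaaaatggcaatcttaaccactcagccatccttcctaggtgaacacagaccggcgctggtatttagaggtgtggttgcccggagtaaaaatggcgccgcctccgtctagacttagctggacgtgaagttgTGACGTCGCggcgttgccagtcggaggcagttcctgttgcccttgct
Psmb9, chr17:34187331-34187580, minus strand: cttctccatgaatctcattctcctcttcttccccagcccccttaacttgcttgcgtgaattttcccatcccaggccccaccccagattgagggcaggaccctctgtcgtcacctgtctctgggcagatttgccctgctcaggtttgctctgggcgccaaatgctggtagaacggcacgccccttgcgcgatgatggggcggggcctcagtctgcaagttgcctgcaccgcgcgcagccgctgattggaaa
Psmb6, chr11:70525107-70525356, plus strand: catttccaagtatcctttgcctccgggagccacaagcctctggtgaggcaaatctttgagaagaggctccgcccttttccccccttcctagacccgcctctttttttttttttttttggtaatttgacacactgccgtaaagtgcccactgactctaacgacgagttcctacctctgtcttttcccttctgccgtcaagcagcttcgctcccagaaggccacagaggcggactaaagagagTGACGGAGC
The capitals in Psmb8 mark a match to TTCNNNGAA, the interferon-gamma activated site bound by STAT factors. Those in Psmb5 and Psmb6 mark TGACNNNGC, the antioxidant response element read by cap-n-collar factors such as Nfe2l1 and Nfe2l2. Psmb9 held neither, nor the interferon response factor motif, which is GAAA, any 2 bases and GAAA again. Both strands were searched in windows of the same length for all genes in the RefSeq table, where 43 of the 51 proteasome genes were found with 47 windows. TTCNNNGAA was in 4.26% of the proteasome windows and 7.02% of all 32851 windows, the interferon response factor motif in 6.38% and 2.98%, and TGACNNNGC in 10.6% and 10.2%. A match is a description of these letters only.

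Set against each other in the same library, the immune subunits took a smaller part of the catalytic FPKM in each Cxcr4+ library than in any Cxcr4- library. The immune share of the summed FPKM of the 6 catalytic genes was 18.9, 20.5 and 19.9% in Cxcr4+ libraries, against 22.5, 21.4 and 22.0% in Cxcr4- libraries. The groups did not overlap, with means of 19.8 ± 0.837% in Cxcr4+ and 22.0 ± 0.552% in Cxcr4- libraries (SD, n = 3 each), a difference of -2.21 percentage points. Leaving out single libraries gave differences of -2.60 to -1.77 points, and leaving out both libraries numbered 2 gave -2.89 points. With counts per coding kilobase in place of FPKM the shares were 17.1, 19.2 and 18.1% in Cxcr4+ libraries, against 20.6, 19.98 and 19.9% in Cxcr4- libraries. The share is a score over genes chosen with earlier results known and is given without a p-value. None of the 6 genes in it passed the test, and how often such a score separates the groups was not measured. The mitochondrial share of counts was also separate between groups, at 5.42 to 5.77% in Cxcr4+ libraries, against 4.61 to 5.32% in Cxcr4- libraries, and its part in the difference was not tested.

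The separation of the shares rested on single genes. Psmb6 alone made up 40.4 to 49.999% of the sum, and without it the shares were 37.8, 36.4 and 38.3% in Cxcr4+ libraries, against 42.6, 35.9 and 42.1% in Cxcr4- libraries, which overlapped. They also overlapped, by a narrow margin, without Psmb10, at 15.3 to 17.06% in Cxcr4+ libraries, against 17.01 to 18.7% in Cxcr4- libraries, and stayed separate without any one of the other 4 genes. Without Psmb8 the shares themselves were lower, at most 9.36% in any library, and the difference of the means was -1.09 points.

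By pair, the ratio of Psmb10 to Psmb7 in FPKM was 0.244, 0.226 and 0.266 in Cxcr4+ libraries, against 0.274, 0.287 and 0.286 in Cxcr4- libraries, without overlap. Psmb8 to Psmb5 stood at 0.882, 0.771 and 0.843 in Cxcr4+ libraries, against 1.10, 0.671 and 1.12 in Cxcr4- libraries, where replicate 2 fell below all Cxcr4+ values. Psmb9 to Psmb6 was 0.0485, 0.0695 and 0.0561 in Cxcr4+ libraries, against 0.0665, 0.0702 and 0.0571 in Cxcr4- libraries, with overlap. FPKM ranges of the groups were separate in 10.4% of all single genes, and the same was not counted for ratios of other genes. In both groups Psmb8 was near the level of its partner on the FPKM scale, while Psmb9 and Psmb10 were well below theirs. Per coding kilobase, Psmb8 over Psmb5 came to 1.60 to 1.83 in Cxcr4+ libraries, against 1.39 to 2.32 in Cxcr4- ones. Which form of this pair was the higher thus depended on the length used and, in FPKM, on the library. Psmb9 and Psmb10 were below their partners with either length.

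**Figure D3:**
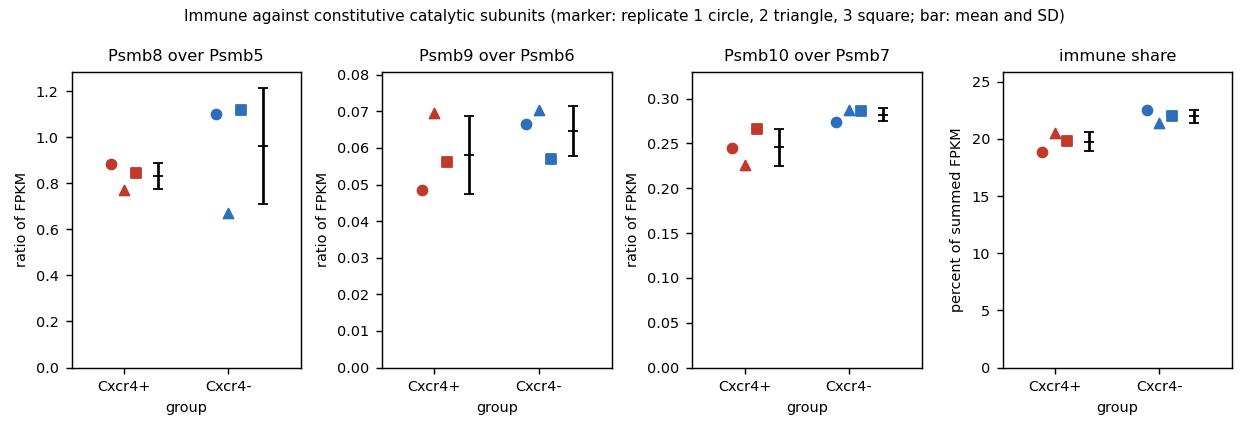
Ratio of each immune catalytic subunit to its constitutive counterpart in FPKM, and the immune share of the summed FPKM of all 6 (percent), in each Cxcr4+ library (red) and Cxcr4- library (blue), with bars for the mean and SD of 3 libraries. Groups are separate for Psmb10 over Psmb7 and for the share, and overlap for the other pairs.

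The alpha rings form the outer rings of the core and its gate. Their 7 genes had log2 fold changes of -0.08 for Psma3 to 0.16 for Psma4, 4 above and 3 below 0, with a median of 0.00. Psma6, the highest of all proteasome genes in FPKM, had 124, 135 and 140 FPKM in Cxcr4+ libraries, against 123, 136 and 127 FPKM in Cxcr4- libraries. The groups overlapped, and the log2 fold change was 0.05 ± 0.08 (SE). Psma7 varied least of all, between 42.6 and 44.8 FPKM over the 6 libraries, a coefficient of variation of 2.18%. The other alpha genes, Psma1 to Psma5, lay between 12.3 FPKM, the lowest of Psma3, and 111 FPKM, the highest of Psma5. Psma4 had the largest difference among them, with 37.3, 44.5 and 40.5 FPKM in Cxcr4+ libraries, against 31.9, 41.3 and 35.9 FPKM in Cxcr4- libraries, and an interval of -0.06 to 0.38. Psma5 shares 55.4% of its 50-base words with other transcripts, pseudogenes among them.

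The 4 beta subunits without a catalytic site, Psmb1 to Psmb4, stood at log2 fold changes of -0.08 to 0.04, 2 on either side of 0. Psmb4 led them in FPKM, but not per coding kilobase. It had 74.4, 81.2 and 71.4 FPKM in Cxcr4+ libraries and 73.6, 85.8 and 70.9 FPKM in Cxcr4- libraries. Its libraries numbered 2 were the highest of each group, and its log2 fold change was -0.02 with an interval of -0.21 to 0.16. Subunits of the constitutive core are present in equal number in the particle, but their mean FPKM ran between 13.6 for Psma3 and 131 for Psma6, a 9.59-fold range. Per coding kilobase the range was 10.2-fold, between Psma3 and Psmb6.

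Among the 6 ATPases, which unfold substrates at the base of the regulatory particle, 5 had fold changes above 0, and Psmc6 came nearest to the threshold of all proteasome genes. Psmc6 had 20.1, 23.2 and 21.2 FPKM in Cxcr4+ libraries, against 17.4, 19.9 and 19.2 FPKM in Cxcr4- libraries. The lowest Cxcr4+ value was just above the highest Cxcr4- value. The log2 fold change was 0.18 ± 0.08 (SE), with an unadjusted p of 0.0517 and an adjusted p of 0.999 in edgeR's quasi-likelihood test. Psmc1, the most abundant ATPase gene, had 53.6, 66.1 and 59.5 FPKM in Cxcr4+ libraries, against 51.5, 66.1 and 54.5 FPKM in Cxcr4- libraries. Its values rank by replicate number rather than by group, and the log2 fold change was 0.05 with an interval of -0.17 to 0.28. The same order by number was seen in Psmc2, with 9.94, 14.0 and 12.1 FPKM in Cxcr4+ libraries and 10.6, 14.7 and 12.1 FPKM in Cxcr4- libraries. Psmc3 and Psmc4 lay between 18.2 and 26.7 FPKM, each highest in replicate 2 of both groups.

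The non-ATPase base subunits bind ubiquitin and its carriers. Psmd2 was the most abundant of the 3 in FPKM, but not per coding kilobase. It had 49.7, 61.9 and 52.5 FPKM in Cxcr4+ libraries, against 52.0, 61.7 and 52.3 FPKM in Cxcr4- libraries, with a log2 fold change of -0.02. Psmd1, its fellow scaffold, had 17.3, 17.9 and 17.2 FPKM in Cxcr4+ libraries, against 15.9, 16.1 and 16.5 FPKM in Cxcr4- libraries. The Psmd1 groups were separate by a narrow gap, with a log2 fold change of 0.10 and an interval of -0.08 to 0.28. Psmd4, a ubiquitin receptor, lay at 47.7 to 55.8 FPKM in Cxcr4+ and 48.3 to 58.5 FPKM in Cxcr4- libraries.

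The lid holds the deubiquitinase Psmd14 and its structural partners, and 5 of its 8 genes had fold changes above 0. Psmd8 was the most abundant, with 126, 103 and 137 FPKM in Cxcr4+ libraries, against 136, 105 and 137 FPKM in Cxcr4- libraries. It was lowest in replicate 2 of both groups, the reverse of 4 other lid genes, and its log2 fold change was -0.05 with an interval of -0.47 to 0.37. Psmd12 had 26.0, 34.8 and 28.2 FPKM in Cxcr4+ libraries, against 24.3, 29.4 and 24.4 FPKM in Cxcr4- libraries, with a log2 fold change of 0.18 and an interval of -0.07 to 0.43, and of 0.09 when Cxcr4+ replicate 2 was left out. Psmd11, a lid subunit known to raise proteasome assembly when abundant, had 20.3, 22.5 and 20.8 FPKM in Cxcr4+ libraries, against 19.6, 18.8 and 18.2 FPKM in Cxcr4- libraries. All its Cxcr4+ values were higher, with a log2 fold change of 0.16 and an interval of -0.03 to 0.36. Psmd14 itself lay at 36.3 to 41.3 FPKM in Cxcr4+ and 33.8 to 42.7 FPKM in Cxcr4- libraries. The other lid genes overlapped between groups, with log2 fold changes of -0.08 for Psmd3, 0.06 for Psmd6, -0.05 for Psmd7 and 0.08 for Psmd13.

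Activators open the core without ubiquitin. Psme1 and Psme2 form the interferon-inducible cap, and neither separated the groups. Psme1 had 27.3, 27.5 and 30.3 FPKM in Cxcr4+ libraries, against 31.6, 26.2 and 27.5 FPKM in Cxcr4- libraries, with a log2 fold change of -0.01 and an interval of -0.30 to 0.28. Psme2 had 41.1, 36.8 and 43.1 FPKM in Cxcr4+ libraries, against 41.6, 37.5 and 38.9 FPKM in Cxcr4- libraries, with a log2 fold change of 0.03 and an interval of -0.25 to 0.31. Psme2 over Psme1 came to 1.42 ± 0.0840 in Cxcr4+ and 1.39 ± 0.0630 in Cxcr4- libraries (SD, n = 3 each).

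Psme2b, a near copy of Psme2, had the most negative fold change of the 50, and 1 library decided it. It had 34.7, 20.6 and 33.5 FPKM in Cxcr4+ libraries, against 32.1, 34.5 and 38.5 FPKM in Cxcr4- libraries, and Cxcr4+ replicate 2 stood apart. Its log2 fold change was -0.24 with an interval of -0.75 to 0.28, and -0.01 without that library. Psme2 and Psme2b share 59.3% and 68.7% of their 50-base words with each other, so the division of reads between them is uncertain. Psme3, the nuclear activator and the most abundant in FPKM, had 40.8, 46.7 and 39.8 FPKM in Cxcr4+ libraries, against 36.1, 43.5 and 36.7 FPKM in Cxcr4- libraries, with overlap and a log2 fold change of 0.13 (interval -0.07 to 0.32). Psme4, the large single-chain activator, lay at 7.06 to 7.82 FPKM in Cxcr4+ and 7.11 to 7.995 FPKM in Cxcr4- libraries. Psmf1, which binds the core and inhibits it in vitro, had the lowest mean, with 2.09, 3.45 and 2.28 FPKM in Cxcr4+ libraries, against 2.29, 3.12 and 2.60 FPKM in Cxcr4- libraries.

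The assembly chaperones build the alpha ring (Psmg1 to Psmg4) and the base (Psmd5, Psmd9 and Psmd10), and 4 of the 7 had fold changes above 0. Psmg4 was the most abundant, with 25.6, 35.8 and 34.7 FPKM in Cxcr4+ libraries, against 31.4, 36.0 and 26.1 FPKM in Cxcr4- libraries. Psmg2, which pairs with Psmg1, had 6.66, 10.4 and 7.09 FPKM in Cxcr4+ libraries, against 7.25, 10.9 and 7.38 FPKM in Cxcr4- libraries. Replicate 2 stood above the rest in both groups, and the log2 fold change was -0.09 with an interval of -0.55 to 0.38. Psmd5 was highest in Cxcr4+ replicate 3, with 4.36, 5.01 and 6.47 FPKM in Cxcr4+ libraries, against 4.07, 4.85 and 4.80 FPKM in Cxcr4- libraries, and its log2 fold change was 0.21 with an interval of -0.17 to 0.58. Psmd10 lay at 22.4 to 25.6 FPKM in Cxcr4+ and 22.2 to 27.5 FPKM in Cxcr4- libraries. Psma8, the alpha subunit of the testis, was measured at 2.94, 5.06 and 4.84 FPKM in Cxcr4+ libraries, against 3.99, 4.50 and 4.54 FPKM in Cxcr4- libraries.

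Of the 2 genes matched by name that are not subunits, Psmc3ip, a cofactor of meiotic recombination, had the most positive fold change of all 50. It had 5.94, 8.86 and 6.02 FPKM in Cxcr4+ libraries, against 5.02, 6.65 and 5.28 FPKM in Cxcr4- libraries. Only Cxcr4+ replicate 2 stood clear of the Cxcr4- values, and the log2 fold change was 0.29 with an interval of -0.11 to 0.69, and 0.12 without that library. Psmc3ip shares 27.1% of its 50-base words with the gene Mlx, so its level is less certain. Psme3ip1, a binding partner of Psme3, had 6.23, 8.92 and 7.23 FPKM in Cxcr4+ libraries, against 6.95, 9.15 and 5.78 FPKM in Cxcr4- libraries.

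The clearest pattern among the proteasome genes ran across the groups. In 32 of the 50 genes (64%) both libraries numbered 2 lay above the other 4 in FPKM, where 26.2% of all genes did. Among genes averaging 5 FPKM or more it was 30 of 45 (66.7%), where 33.1% of all such genes did. In 2 genes, Psmd8 and Psme2, both lay below the other 4, where 9.74% of all genes did. The median log2 deviation from the gene's mean over the 50 genes was -0.10, 0.15 and 0.01 in Cxcr4+ libraries 1 to 3 and -0.10, 0.14 and -0.07 in Cxcr4- libraries 1 to 3. Over the genes of at least 5 FPKM it was 0.07 in both libraries numbered 2 and -0.04 to -0.01 in the others. The proteasome genes thus stood further above their mean in the libraries numbered 2 than genes at large. Since FPKM is relative, the level of other transcripts moves it too.

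By role, the pattern held for 6 of 7 alpha genes, 5 of 6 ATPases, 6 of 7 chaperones, 2 of 3 base non-ATPases and 4 of 8 lid genes. It held for 2 of the 4 non-catalytic beta genes, 2 of the 3 constitutive catalytic genes and 2 of the 5 activators. It also held for Psmf1 and for both genes matched by name that are not subunits, but for 0 of the 3 immune catalytic genes. Whether roles differ in it was not tested. Psmc5, an ATPase, had 63.1 FPKM in Cxcr4+ replicate 2 and 62.2 FPKM in Cxcr4- replicate 2, against 45.3 to 48.1 FPKM in the other libraries. Psmg1 had 12.01 and 13.0 FPKM in the libraries numbered 2, against 6.92 to 9.19 FPKM in the other libraries. The mean of these 2 libraries over the mean of the rest was 1.501 for Psmg2, 1.48 for Psmg1, 1.42 for Psmf1 and 1.41 for Psmb5. Macrophage markers did not move one way with the number: Lyz2, which makes up most of their sum, had 6053 FPKM in Cxcr4+ replicate 2 and 5337 FPKM in Cxcr4- replicate 2, the lowest of each group, while Csf1r had 94.5 and 88.4 FPKM there, the highest of each group. The part of either in the pattern was not tested. What the number 2 stands for is not stated in the labels. Without both libraries numbered 2, none of the 50 genes passed the test, and 31 had log2 fold changes above 0.

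**Figure D4:**
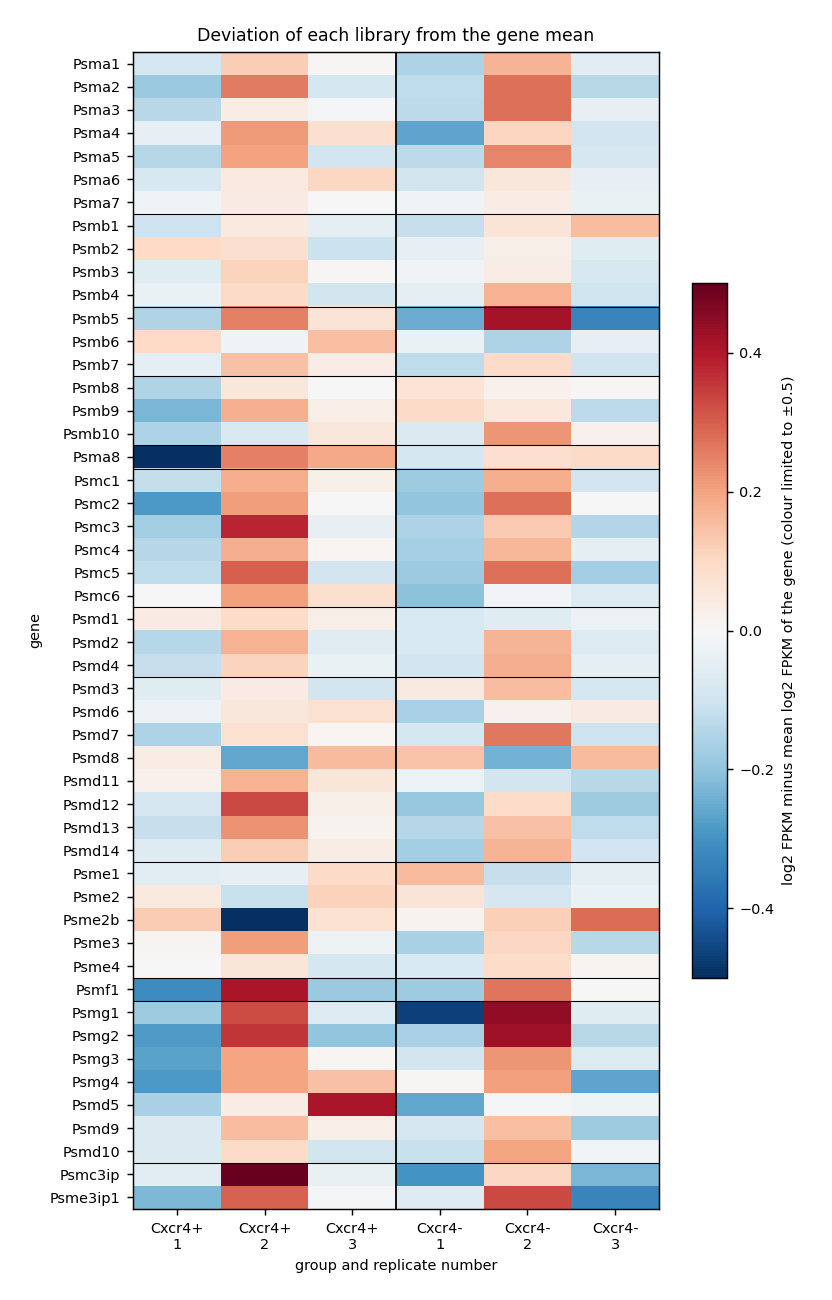
Log2 FPKM of each proteasome gene in each library minus the gene's mean over the 6 libraries (red above, blue below, colour limited to 0.5 either side of 0), with Cxcr4+ libraries on the left. The columns of replicate 2 are red in most rows of both groups, and Psmd8 and Psme2 are the 2 genes with both of these libraries below the other 4.

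**Figure D5:**
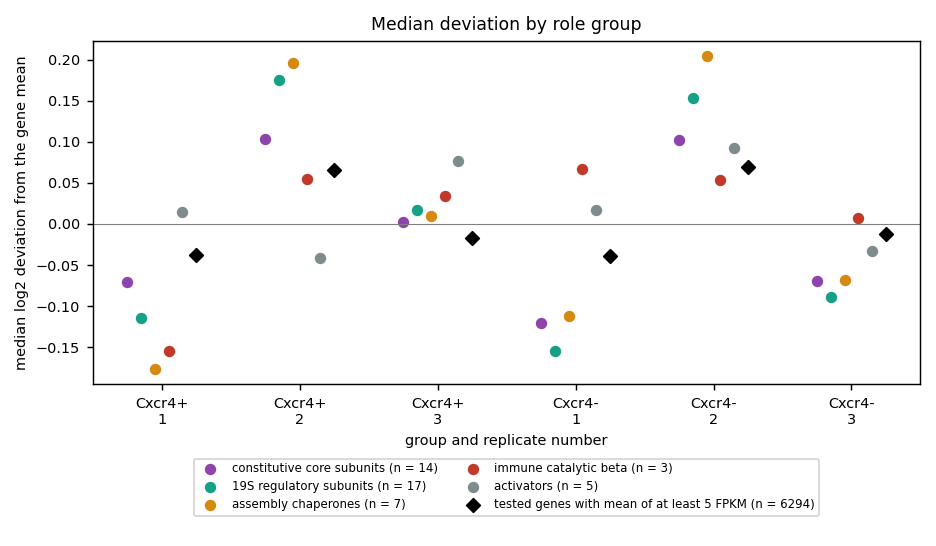
Median log2 deviation from the gene mean in each library for 5 sets of proteasome genes (circles) and for all tested genes averaging 5 FPKM or more (black diamonds). Regulatory subunits and chaperones reach 0.15 to 0.20 in replicate 2 of both groups, constitutive core subunits 0.10 and the 3 immune catalytic genes 0.05 to 0.06. Activators stand there at -0.04 in Cxcr4+ and 0.09 in Cxcr4-, and the black diamonds at 0.07 in both.

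Genes that work with the proteasome but fall outside the name rule gave no call either. Of 12 partners, 0 passed the test, where 0.0312% of all genes did. Akirin2, a nuclear import adaptor for proteasomes, had 14.4, 13.6 and 15.1 FPKM in Cxcr4+ libraries, against 12.03, 12.9 and 10.8 FPKM in Cxcr4- libraries, with a log2 fold change of 0.27 ± 0.12 (SE) and an interval of -0.00 to 0.54. Uchl5, a deubiquitinase of the regulatory particle, had 19.1, 19.97 and 20.9 FPKM in Cxcr4+ libraries, against 16.8, 19.1 and 18.2 FPKM in Cxcr4- libraries, and a log2 fold change of 0.15. Both had groups without overlap, 2 of 12 partners, where 10.4% of all genes showed this.

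Of 5 genes that control proteasome transcription, 0 passed the test, where 0.0312% of all genes did. Nfe2l1, the factor that raises proteasome genes when activity is short, varied most, with 44.999, 45.7 and 12.1 FPKM in Cxcr4+ libraries, against 40.1, 8.02 and 16.2 FPKM in Cxcr4- libraries. The spread within groups was wider than the gap between them, with a log2 fold change of 0.63 ± 0.66 (SE). Ddi2, the protease that activates Nfe2l1, had a log2 fold change of -0.17.

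Genes of ubiquitin supply and activation were read from the same fit. Ubb, which encodes ubiquitin in repeats, had 469, 383 and 433 FPKM in Cxcr4+ libraries, against 544, 408 and 450.5 FPKM in Cxcr4- libraries, with a log2 fold change of -0.13 and an interval of -0.51 to 0.24. The groups overlapped, and replicate 2 was the lowest of each. Uba1, the main ubiquitin-activating enzyme, lay at 79.3 to 94.9 FPKM in Cxcr4+ and 81.9 to 87.5 FPKM in Cxcr4- libraries, with a log2 fold change of -0.01.

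The interferon-gamma and class I axis, the setting in which the immune subunits are known, was read as 14 genes. Of these, 0 passed the test, where 0.0312% of all genes did, and 0 had an unadjusted p under 0.05, where 4.85% did. Fold changes were above 0 in 8 of the 14, where 50.1% of all genes were. Counts this small do not set the list apart from all genes. Irf1, a transcription factor induced by interferon-gamma, had 4.43, 3.80 and 3.83 FPKM in Cxcr4+ libraries, against 2.27, 3.98 and 3.82 FPKM in Cxcr4- libraries, with a log2 fold change of 0.27 and an interval of -0.22 to 0.75. Nlrc5, the activator of class I genes, had 8.28, 8.75 and 8.30 FPKM in Cxcr4+ libraries, against 8.25, 9.20 and 10.3 FPKM in Cxcr4- libraries, with a log2 fold change of -0.14 and an interval of -0.37 to 0.09. Tapbpl, a peptide editor of class I molecules, had a log2 fold change of -0.35 with an interval of -0.88 to 0.19.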

How the data were processed

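Macrophage RNA from 3 Cxcr4+ and 3 Cxcr4- libraries was sequenced, and groups and replicate numbers were taken from the labels. The submitters' processing notes name cutadapt, HISAT2, StringTie and GRCm39 without their roles (versions, annotation release and strand setting not given in the sources used here). For each library, per the file headers, the authors deposited estimated counts and FPKM per gene. These expected counts were already whole numbers. Low counts favour multiples of 4 (43.2% of those between 1 and 20, against 25% if evenly spread), so a count need not be 1 read and a floor of 3 fragments was set at 12 counts. An FPKM listed at the table's minimum where the count was 0 was read as 0. Because the table held both units, the count test of the design was used.

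Counts were fitted in R 4.3.3 with edgeR 4.0.16 (filterByExpr with minimum count 10 and minimum total 15, TMM scaling, quasi-likelihood test, group as the one term), with Benjamini-Hochberg adjustment over the 16031 genes kept. The SE was the log2 fold change divided by the root of the F statistic, and 95% intervals used the fit's own degrees of freedom. Alternatives were DESeq2 1.42.0, limma-trend (limma 3.58.1) on log2(FPKM + a pseudocount of 0.1, 1 or 5), other scalings and filters, the replicate number as a block and leaving out each library. Coding length, leaving out both libraries numbered 2 and leaving out each gene of the immune share were added after seeing the data. For the catalytic genes the design named the ratios by pair, and the immune share was not in it. Intervals cover the spread between libraries. The script was checked on simulated counts.

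The members and gene lists were chosen with earlier results of these data known. Genes with values in every library are the 6 catalytic subunits, Psme1, Psme2, any member with an unadjusted p under 0.05, the member of highest mean FPKM in each role group, the 3 with the largest fold change in each direction among those of at least 5 FPKM, up to 4 genes of smallest p per pathway list, and Cxcr4. Other genes named with values, among them Psma4, Psma7, Psmc2, Psmc5, Psmd1, Psmd5, Psmd11 and Psmg1, were chosen after their values were seen. Part of the ubiquitin list is not reported here. Of the partner list, Paaf1 was not matched. Shared sequence was measured as the percentage of 50-base words of the principal coding transcript found in other genes' transcripts (GENCODE M21), for all 51 genes. It was above 10% in 16 and 0 in 24 of them. Promoters came from RefSeq on GRCm38.p6. Figures were drawn with matplotlib 3.10.9.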

Additional observations from a re-analysis of the deposited data

How the results depend on the processing

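The count of 0 proteasome genes called held under all alternatives run. The number of all genes called, 5 in the main test, was 63 with DESeq2, 1 with limma-trend at a pseudocount of 1 without the filter, and 1 to 9 when a library was left out: leaving out Cxcr4+ replicate 1, Cxcr4+ replicate 3 and, separately, Cxcr4- replicate 1 left 1 each, and leaving out Cxcr4+ replicate 2 left 9. The cause was not tested. With 3 libraries a group, small differences can go unseen. The half-widths given belong to the fit with group as the one term, and they are not the smallest difference an adjusted test could call. With the libraries numbered 2 as a block, the SE of Psmd8 was 0.057, against 0.179 in the main fit. That of Psmb9 was 0.124, against 0.132.

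With the replicate number as a block, 0 of all genes and 0 proteasome genes were called, and 5 proteasome genes (Psma4, Psmb6, Psmc3ip, Psmc6 and Psmd12) had an unadjusted p under 0.05, where 9.33% of all genes did. Same-numbered libraries had correlated deviations of 0.0383, 0.141 and 0.0451 for numbers 1, 2 and 3 over 16031 genes, and Cxcr4+ replicate 1 correlated best with Cxcr4- replicate 3 (0.0522). All 3 same-numbered values were positive, while libraries of unlike number had -0.0890 to 0.0522. Deviations were taken from the mean of each group, so these values depend on one another. A likeness of the libraries numbered 2 alone would make the values among numbers 1 and 3 positive. Those of unlike number there were 0.0522 and 0.0213, so the signs for numbers 1 and 3 cannot decide on pairing. Only the pair numbered 2 was over 0.1, a limit that the design did not name. The numbers were not taken as pairing the samples, and whether they do is not settled by these values. With the libraries numbered 2 as a block, 6 had an unadjusted p under 0.05, where 9.26% of all genes did.

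The difference in immune share, -2.21 points, was -1.09 without Psmb8 in the sum. The groups stayed separate there, on a lower scale, with 9.36% as the highest share of any library. Leaving out Psmb6 gave -2.72 points and leaving out Psmb10 gave -1.76 points, and in both cases the groups overlapped.

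Signs of small log2 fold changes turned. Psme1 became 0.0017, 0.0019, 0.0012 and 0.0017 in limma-trend with pseudocounts of 1, 0.1 and 5 and without the filter, and Psmb4 0.0047 without both libraries numbered 2. Leaving out single libraries gave ranges that cross 0 for Psmb9 (-0.076 to 0.072), Psmb5 (-0.044 to 0.31), Psme1 (-0.097 to 0.10), Psme2 (-0.036 to 0.12), Psmg2 (-0.27 to 0.087), Psma6 (-0.015 to 0.081), Psmb4 (-0.070 to 0.024), Psma8 (-0.15 to 0.17), Psmd2 (-0.082 to 0.027), Psmd8 (-0.20 to 0.089), Psmf1 (-0.25 to 0.074), Psmg4 (-0.069 to 0.16) and Psme3ip1 (-0.11 to 0.18). The median log2 fold change of the activators was 0.10 without Cxcr4- replicate 1, and that of the constitutive catalytic genes 0.15 without both libraries numbered 2.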
